A study of Mus musculus with 8 samples.

Results

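The STAT factors and their SOCS feedback genes are described here as 9 genes of the 54532 in the deposited mouse gene count table. They were taken by gene symbol: 6 STAT transcription factor genes (Stat2, Stat3, Stat4, Stat5a, Stat5b and Stat6) and 3 feedback inhibitor genes (Socs1, Socs3 and Cish). Bulk RNA-seq was performed on 8 subcutaneous tumors of 4T1-FLuc, a mouse triple-negative breast cancer (TNBC) line with firefly luciferase, grown in female BALB/cJ mice aged 6 weeks at injection. 4 mice received saline (labelled PBS control) and 4 received mAb-DXd/IMQ. mAb-DXd/IMQ is an anti-CD276 antibody that carries DXd, a topoisomerase I inhibitor, and IMQ, an imidazoquinoline agonist of Toll-like receptors 7 and 8. The dose was 16 mg/kg, injected into a vein in 5 courses that were 4 days apart. The mAb-DXd/IMQ tumors are called treated tumors below. None of the tumors analysed here received the antibody alone or 1 payload alone, so the effects of these components cannot be told apart.

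Cytokines and interferons bind paired receptors whose Janus kinases (JAKs) phosphorylate STAT proteins, which then enter the nucleus and bind DNA. SOCS proteins and CIS, the product of Cish, are made in response and switch the same receptors off. STAT activity depends on phosphorylation, which RNA counts do not measure, so RNA levels of the factors and of their target genes were described separately.

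All 9 genes were measured in every tumor and passed the filter on low counts. By edgeR's quasi-likelihood test, 0 of the 9 passed both thresholds, which were an adjusted p under 0.05 (FDR, Benjamini-Hochberg over all 18511 tested genes) and a log2 fold change beyond 0.58 in size. Of all tested genes, 1.06% passed. DESeq2, run with its own filter in place of edgeR's, passed 1 of the 9, Cish, while limma-voom and a newer quasi-likelihood method of edgeR passed 0. At an unadjusted p under 0.05 there were 6 of the 9 (Stat3, Stat5a, Stat5b, Stat6, Socs3 and Cish), each lower in the treated tumors, against 9.79% of all tested genes in that direction and 18.9% in either direction. Stat6 and Socs3 were near this limit, and with upper quartile factors, with library size alone or without saline replicate 1 only the other 4 stayed under it. All 9 fitted log2 fold changes were below 0, against 47.4% of all tested genes. Their median was -0.36, against 0.02 over all tested genes. The log2 fold change of Stat2 was close to 0 and turned above 0 with upper quartile factors and with library size alone. That of Socs1 turned above 0 without saline replicate 1. In bulk samples, fewer cells of a type and less RNA per cell cannot be told apart. The p-values measure the spread between these 8 tumors.

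**Figure D1:**
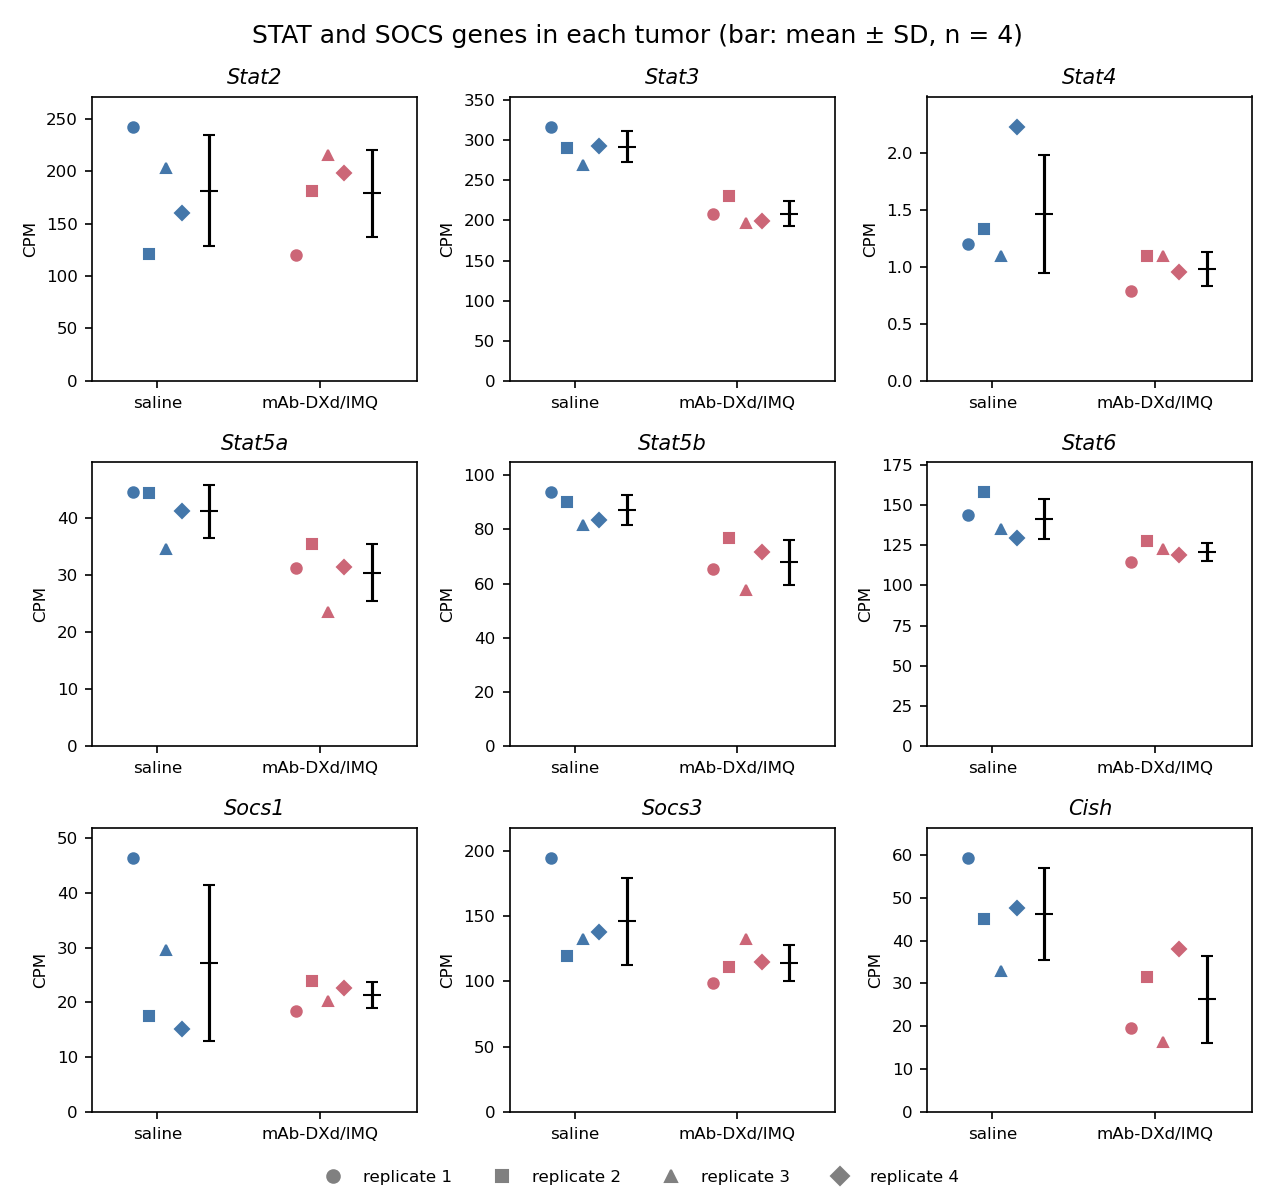
CPM (counts per 1000000 counts in tested genes, scaled by TMM factors, vertical axes from 0) of the 9 STAT and SOCS genes in each of the 4 saline (blue) and 4 mAb-DXd/IMQ (red) tumors, with symbols for replicates and bars for mean ± SD. The Stat3 points of the groups are apart, at 268.7 CPM or more in the saline tumors and 230.4 CPM or less in the treated tumors, while those of Stat2 and Socs1 overlap.

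Levels of different genes were compared as CPM per kb of gene length, using the exon length deposited for each gene. In saline tumors Socs3 had 50.5 ± 11.5 CPM per kb (SD, n = 4). Stat6, Stat3 and Stat2 followed at 32.1 ± 2.81, 30.7 ± 2.05 and 30.6 ± 8.86 CPM per kb, which did not differ beyond their spread. Stat5b had 15.7 ± 1.01 CPM per kb. Socs1, Cish and Stat5a had 9.34 ± 4.91, 7.19 ± 1.69 and 5.78 ± 0.657 CPM per kb, again within their spread, and Stat4 was lowest at 0.377 ± 0.134. In mAb-DXd/IMQ tumors Socs3 was again highest at 39.5 ± 4.77 CPM per kb and Stat4 lowest at 0.253 ± 0.0378. There Stat2, at 30.1 ± 6.98, and Stat6, at 27.5 ± 1.28, had higher means than Stat3, at 21.9 ± 1.61 CPM per kb, although in treated tumor 1 Stat2 was below Stat3. The difference between Stat2 and Stat3 was within the larger SD in the saline tumors and above it in the treated tumors, and it was not tested.

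The ligands were read first, from a list of 30 cytokine genes of which 18 had enough counts to test. Only Tslp passed the thresholds, upward; over all tested genes 0.546% passed upward and 0.519% downward. Tslp encodes thymic stromal lymphopoietin, an epithelial cytokine whose receptor signals through STAT5. Its values were 8.88, 12.3, 27.4 and 16.1 CPM in saline tumors 1 to 4 and 64.5, 78.6, 25.5 and 80.2 CPM in treated tumors 1 to 4. Treated tumor 3 was below saline tumor 3, so the groups overlapped, and the other treated tumors were above every saline tumor (log2 fold change 1.94 ± 0.39 (SE), FDR 0.0429). Ifng, the T-cell and NK-cell interferon, had 2.94, 1.87, 2.87 and 1.57 CPM in the saline tumors and 1.22, 1.26, 0.633 and 1.46 CPM in the treated tumors. All 4 treated values were below the saline ones, and the test was not passed (log2 fold change -1.02 ± 0.34 (SE), FDR 0.145). Il12b, the p40 subunit of interleukin 12, which signals through STAT4, had a log2 fold change of -1.69 ± 0.52 (SE) and an FDR of 0.117, with saline tumor 1 inside the treated range. The type I interferon gene Ifnb1 had 40 counts over the saline and 23 over the mAb-DXd/IMQ tumors, too few to test. The list's median log2 fold change was -0.05.

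Of 32 receptor genes, 30 were tested and 1 passed. Csf3r, the receptor for G-CSF on neutrophils, which signals through STAT3, had 41.5, 35.2, 30.1 and 35.4 CPM in the saline tumors and 15, 21.8, 22.9 and 22.1 CPM in the treated tumors. Every treated tumor was below every saline tumor, and Csf3r fell (log2 fold change -0.80 ± 0.16 (SE), FDR 0.0402). Il4ra, the interleukin 4 receptor chain that recruits STAT6, had 189, 177, 160.4 and 147 CPM and 121, 123, 119.9 and 112 CPM in the same order of groups. These values did not overlap, and with an FDR of 0.0497 its log2 fold change of -0.50 ± 0.11 (SE) stayed under the fold limit. Over the alternatives the FDR of Il4ra went from 0.00377 to 0.127. Il6ra, the interleukin 6 receptor, had a log2 fold change of -0.63 ± 0.15 (SE) without overlap and an FDR of 0.0624. Il13ra1, the receptor gene with the highest level, at 65.2 CPM per kb over the 8 tumors, had a log2 fold change of -0.20 ± 0.19 (SE) and an FDR of 0.624. Lower values were seen in 20 of the 30 receptor genes, against 47.4% of all tested genes, with a median log2 fold change of -0.18.

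None of the 4 JAK genes passed edgeR's thresholds, nor DESeq2's or limma-voom's, and 2 had an unadjusted p under 0.05, against 18.9% of all tested genes. Jak2, which serves many hormone and cytokine receptors, had the highest level of the 4 at 94.9 CPM per kb over the 8 tumors. Its values were 741, 435, 508 and 519 CPM in the saline tumors and 460.1, 439, 316 and 399.6 CPM in the treated tumors, overlapping, with a log2 fold change of -0.45 ± 0.18 (SE) and an FDR of 0.214. The log2 fold change of Jak2 was -0.27 without saline replicate 1, the highest tumor. Tyk2, which pairs with the type I interferon and interleukin 12 receptors, was at 76.8, 79.5, 70.9 and 78.3 CPM and at 45.7, 64.1, 54.1 and 60.6 CPM. Its groups did not overlap (log2 fold change -0.44 ± 0.12 (SE), FDR 0.0824). Jak3, the kinase of the common gamma chain, overlapped between groups and had a log2 fold change of -0.31 ± 0.17 (SE) with an FDR of 0.373. In the fit without saline replicate 1 that of Jak3 was -0.17.

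Stat3 (ENSMUSG00000004040, chr11:100885098-100939540) mediates interleukin 6 and G-CSF signals and is a growth-promoting factor in many tumors. Its values were 316, 290.4, 269 and 293 CPM in saline tumors 1 to 4 and 208, 230.4, 196 and 199.8 CPM in treated tumors 1 to 4. The highest treated value, in tumor 2, was below the lowest saline value, in tumor 3, so the groups did not overlap. The same held for 4 of the 9 genes in the downward direction, Stat3, Stat4, Stat5b and Stat6, against 7.1% of all tested genes, although the gap for Stat4 was smaller than 1 count. The means were 292 ± 19.6 CPM in the saline and 209 ± 15.3 CPM in the treated tumors (SD, n = 4), a log2 fold change of -0.49 ± 0.11 (SE) with a 95% interval of -0.72 to -0.25. Its FDR of 0.0518 by edgeR was just above the limit, the lowest of the 9, and the fold change was under the fold limit. By DESeq2 the FDR of Stat3 was 0.00254, with a log2 fold change of -0.49, again under the fold limit. Of the other edgeR fits, 2 put the FDR of Stat3 under the limit, at 0.0422 with the newer quasi-likelihood method and 0.0431 with a filter of at least 1 CPM in 4 tumors. In the other fits the FDR of Stat3 stayed above the limit, among them 0.112 with the length correction and 0.162 without saline replicate 4.

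Stat5a (ENSMUSG00000004043, chr11:100859351-100885169) and Stat5b (ENSMUSG00000020919, chr11:100780731-100850724) are neighbors of Stat3 on chromosome 11 and encode near-identical factors for prolactin, growth hormone, interleukin 2 and GM-CSF. Stat5a was at 44.5, 44.5, 34.5 and 41.3 CPM in the saline tumors and at 31.3, 35.5, 23.5 and 31.5 CPM in the treated tumors. Treated tumor 2 lay just above saline tumor 3, and the other treated tumors lay below all saline tumors. Stat5b was at 93.5, 90.0, 81.4 and 83.6 CPM in the saline tumors and at 65.3, 76.9, 57.7 and 71.5 CPM in the treated tumors, with no overlap. Tumor 3 was lowest of its group for both genes. The log2 fold changes were -0.44 ± 0.14 (SE) for Stat5a and -0.36 ± 0.11 (SE) for Stat5b, with FDRs of 0.133 and 0.12. Stat5a and Stat5b share 265 sequence windows of 100 bases, and 96.6% and 95.2% of their windows were unique, so reads from the shared stretches cannot be told apart. Stat5a also overlaps the more abundant Stat3 by 72 bases on the opposite strand, where reads cannot be told apart either. The log2 ratio of Stat5a to Stat5b was -1.09 ± 0.10 (SD, n = 4) in the saline tumors and -1.16 ± 0.10 in the treated tumors. The difference of -0.08 was smaller than either SD (two-sided exact permutation test, p = 0.343, 0.514 adjusted over 3 ratios).

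Stat6 (ENSMUSG00000002147, chr10:127642986-127660957) carries interleukin 4 and interleukin 13 signals. It was at 144, 158, 135 and 129 CPM in the saline tumors and at 115, 128, 122 and 119 CPM in the treated tumors. Treated tumor 2 was close below saline tumor 4, and the groups did not overlap. With a log2 fold change of -0.23 ± 0.10 (SE) and an FDR of 0.253, the difference was the smallest among the STAT genes apart from Stat2.

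Stat4 (ENSMUSG00000062939, chr1:51987148-52107189), the factor for interleukin 12 in T and NK cells, was near the low end of what was measured, with 34 to 152 counts per tumor. It was at 1.2, 1.33, 1.09 and 2.22 CPM in the saline tumors and at 0.784, 1.09, 1.09 and 0.956 CPM in the treated tumors. Saline tumor 4 was highest, and saline tumor 3 was level with treated tumors 2 and 3 at the precision printed. The log2 fold change was -0.58 ± 0.33 (SE) with an FDR of 0.369, and without saline replicate 4 it was -0.29. Counts of Stat4 are uncertain, since 26.7% of its exonic bases overlap the same-strand gene Gm28177, which had 102 counts against 504 for Stat4.

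Stat2 (ENSMUSG00000040033, chr10:128270559-128292849) forms with IRF9 the complex that turns on interferon-stimulated genes. Its values were 242, 121, 203 and 159.8 CPM in saline tumors 1 to 4 and 120.2, 181, 215 and 198 CPM in treated tumors 1 to 4. Saline tumor 1 was highest of all 8, saline tumor 2 and treated tumor 1 were lowest, and the groups overlapped almost fully. The log2 fold change was -0.02 ± 0.22 (SE) with a 95% interval of -0.52 to 0.47 and an FDR of 0.973, so a difference of either sign up to these bounds was not excluded by this spread. Without saline replicate 1 the log2 fold change was 0.15, and without saline replicate 2 it was -0.18.

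**Figure D2:**
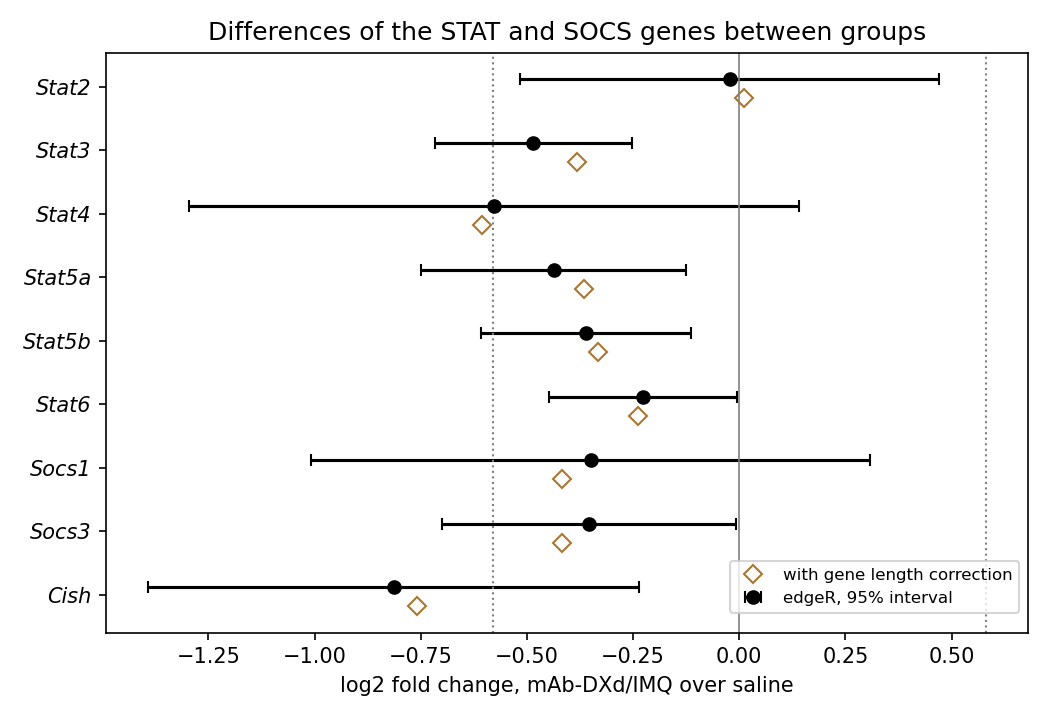
Log2 fold change (horizontal axis, mAb-DXd/IMQ over saline, 4 tumors each) of the 9 genes by edgeR with 95% intervals (filled circles), and after a correction for gene length (open diamonds, no interval drawn). Dotted lines mark the fold limit of 0.58 in both directions; the intervals of Stat3, Stat5a, Stat5b, Stat6, Socs3 and Cish end below 0, and of the filled circles only that of Cish lies beyond the limit. The diamonds of Cish and Stat4 lie beyond it.

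Across all tested genes, log2 fold changes went down with gene length (Spearman rho of -0.21 across genes, which are not independent replicates). After a length correction within each tumor that coefficient was -0.029. With this correction the log2 fold changes were -0.38 for Stat3, -0.36 for Stat5a, -0.33 for Stat5b, -0.24 for Stat6, -0.42 for Socs3 and -0.76 for Cish. All 6 stayed below 0, and that of Stat2 was 0.01.

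Among the feedback inhibitors, Cish (ENSMUSG00000032578, chr9:107296026-107302784) is a classical STAT5 target whose product blocks STAT5 docking at cytokine receptors. Its values were 59.3, 45, 32.9 and 47.5 CPM in saline tumors 1 to 4 and 19.5, 31.5, 16.2 and 38 CPM in treated tumors 1 to 4. Treated tumor 4 was above saline tumor 3 and the other treated tumors were below every saline tumor, so the groups overlapped through 1 tumor. Means were 46.2 ± 10.8 CPM in the saline and 26.3 ± 10.2 CPM in the treated tumors (SD, n = 4). The log2 fold change of -0.81 ± 0.26 (SE), the largest of the 9, missed the FDR limit by edgeR at 0.131 and passed it by DESeq2 at 0.0333. By edgeR with no filter on low counts the FDR of Cish was 0.0831. Over the alternatives the FDR of Cish went from 0.0333 to 0.283. Antisense genes Gm17041 and Gm17040 overlap its exons, with 0 and 28 counts over the 8 tumors against 14510 for Cish.

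Socs3 (ENSMUSG00000053113, chr11:117966079-117970047), induced by STAT3, blocks signaling from the interleukin 6 receptor chain gp130. It was at 195, 119.9, 132 and 138 CPM in the saline tumors and at 99.1, 111, 132 and 115 CPM in the treated tumors. Saline tumor 1 stood highest, and treated tumor 3 lay inside the saline range. The log2 fold change was -0.35 ± 0.16 (SE) with an FDR of 0.255, and without saline replicate 1 it was -0.19.

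Socs1 (ENSMUSG00000038037, chr16:10782240-10785536), the feedback inhibitor of interferon receptors, was at 46.4, 17.5, 29.6 and 15.2 CPM in the saline tumors and at 18.4, 23.8, 20.3 and 22.7 CPM in the treated tumors. The 4 treated tumors lay close together inside the saline range, whose highest value was again in saline tumor 1. The log2 fold change of -0.35 ± 0.30 (SE) had an FDR of 0.567, and without saline replicate 1 it turned to 0.03.

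Ratios within a tumor do not depend on library scaling. The log2 ratio of Cish to Socs3 was -1.72, -1.41, -2.01 and -1.54 in the saline tumors and -2.35, -1.82, -3.03 and -1.6 in the treated tumors. Treated tumors 1 and 3 were below every saline tumor and treated tumors 2 and 4 were inside the saline range. The mean difference of -0.53 did not pass a two-sided exact permutation test (p = 0.2, 0.514 adjusted over 3 ratios). The log2 ratio of Socs1 to Socs3 differed by 0.12, less than the saline SD of 0.53 (exact permutation test, p = 0.686).

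Promoter windows are shown for Stat2 and the 3 feedback genes, since STAT dimers and the STAT2 and IRF9 complex bind distinct short motifs. The windows come from RefSeq (GRCm38.p6), run from 250 bases before to 50 bases after each start site, and matched all 9 genes with 12 windows. Searched on both strands were TTCNNNGAA, the GAS element of STAT dimers (found in 8.3% of the 32851 windows of the table), TTCNNNNGAA, its form with a longer spacer (6.95%), and GAAANNGAAA, the core of the interferon-stimulated response element (3.44%). Matches are in capitals. In the windows printed, only the 2 matches in Socs1 overlap each other. The Cish window (chr9:107296409-107296708, forward strand) holds TTCNNNGAA at 2 places and the Socs3 window (chr11:117969317-117969616, reverse strand) at 1. GAAANNGAAA is found at 2 overlapping places in the Socs1 window (chr16:10785487-10785786, reverse strand), and on the opposite strand at 1 place in the Stat2 window (chr10:128270248-128270547, forward strand), next to 1 match of TTCNNNNGAA. Of the other 8 windows, 1 of Stat4 holds GAAANNGAAA. A match describes letters only and is not a measured binding site.
Cish: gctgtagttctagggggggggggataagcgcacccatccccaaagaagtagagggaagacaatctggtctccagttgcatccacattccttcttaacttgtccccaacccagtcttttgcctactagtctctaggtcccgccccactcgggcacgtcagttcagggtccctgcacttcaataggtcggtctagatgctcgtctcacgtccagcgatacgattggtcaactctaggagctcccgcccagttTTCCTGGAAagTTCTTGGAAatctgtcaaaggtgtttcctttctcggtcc
Socs3: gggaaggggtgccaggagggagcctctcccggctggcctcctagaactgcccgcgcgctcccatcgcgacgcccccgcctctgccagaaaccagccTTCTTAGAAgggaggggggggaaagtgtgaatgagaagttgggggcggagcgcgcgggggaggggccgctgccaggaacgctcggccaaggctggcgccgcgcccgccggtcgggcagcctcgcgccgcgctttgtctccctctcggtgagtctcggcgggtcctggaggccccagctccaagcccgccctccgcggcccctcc
Socs1: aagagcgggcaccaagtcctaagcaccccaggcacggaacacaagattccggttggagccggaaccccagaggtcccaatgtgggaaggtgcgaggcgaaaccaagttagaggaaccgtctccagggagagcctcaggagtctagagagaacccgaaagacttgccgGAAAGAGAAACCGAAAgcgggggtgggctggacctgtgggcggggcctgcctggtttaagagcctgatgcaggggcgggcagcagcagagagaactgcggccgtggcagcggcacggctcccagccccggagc
Stat2: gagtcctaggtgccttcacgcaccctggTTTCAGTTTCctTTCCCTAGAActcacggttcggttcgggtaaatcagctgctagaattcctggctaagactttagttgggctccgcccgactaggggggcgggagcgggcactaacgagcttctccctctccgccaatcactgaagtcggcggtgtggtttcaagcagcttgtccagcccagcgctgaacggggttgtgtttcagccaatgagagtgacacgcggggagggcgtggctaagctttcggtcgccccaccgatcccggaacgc

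Of 15 other inhibitors of the pathway, none passed both thresholds by edgeR, DESeq2 or limma-voom, 5 had an unadjusted p under 0.05 (18.9% of all tested genes), and the median log2 fold change was -0.15. Pias1, a SUMO ligase that restrains STAT DNA binding, had 52.6, 58.2, 53.6 and 53.2 CPM in the saline tumors and 38.1, 39.8, 36.3 and 35.9 CPM in the treated tumors. Its groups lay far apart, and with a log2 fold change of -0.54 ± 0.09 (SE) it passed the FDR limit (0.0277) and not the fold limit. Over the alternatives the FDR of Pias1 went from 0.000346 to 0.118. Socs5 and Pias3 had log2 fold changes of -0.35 ± 0.12 (SE) and -0.43 ± 0.15 (SE), with FDRs of 0.148 and 0.165. Ptpn6, the SHP-1 phosphatase of blood cells and the inhibitor gene with the highest level, at 31.4 CPM per kb over the 8 tumors, differed by -0.11 ± 0.14 (SE) on the log2 scale.

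Known target genes of the factors were read from 5 lists. Of 70 target genes 69 were tested, and 6 passed, 2 upward and 4 downward. Over all tested genes 0.546% passed upward and 0.519% downward. The lists differed in direction: all 20 STAT2 and IRF9 targets had positive log2 fold changes, with a median of 0.71. Of all 18511 tested genes, 9741 were higher. The medians of the STAT3, STAT4, STAT5 and STAT6 target lists were -0.36, -0.18, -0.62 and -0.64, and that of all tested genes was 0.02.

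**Figure D3:**
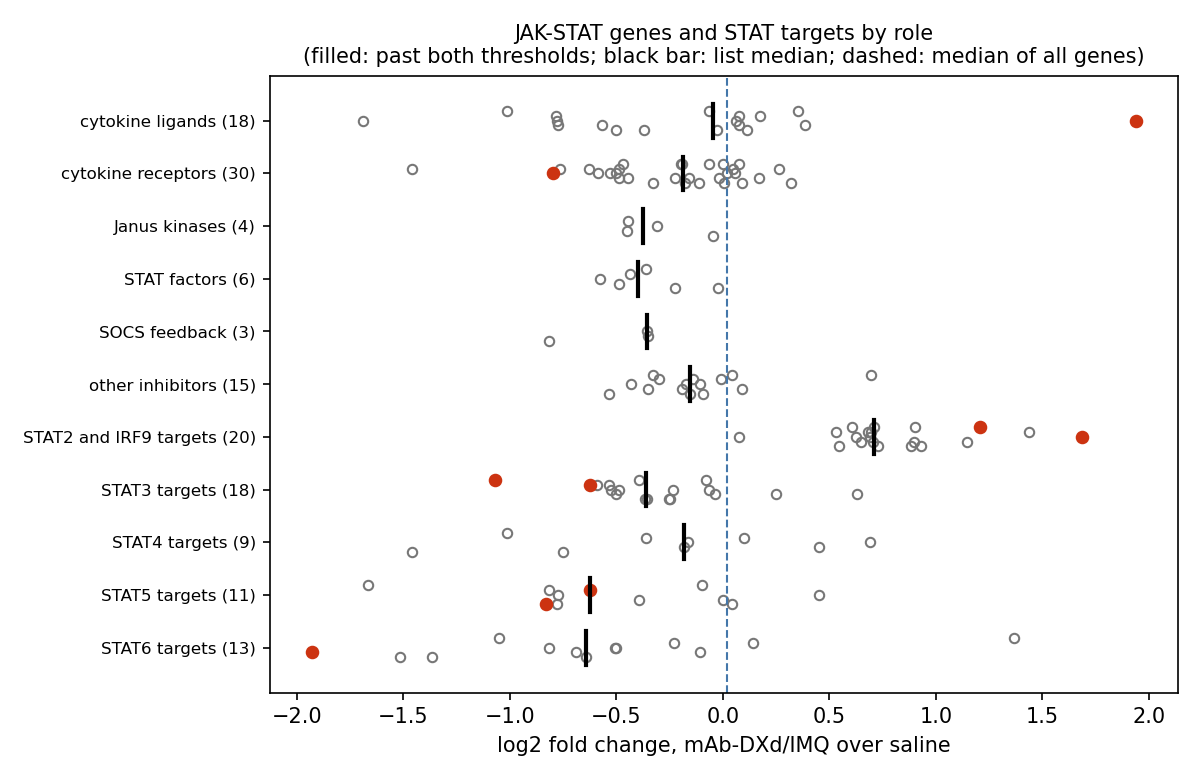
Log2 fold change (horizontal axis, mAb-DXd/IMQ over saline) of each tested gene of the JAK-STAT and target lists, with the number tested in brackets. Filled red points passed both thresholds, black bars are list medians and the dashed line is the median of all tested genes. The STAT2 and IRF9 targets lie above 0 and 16 of the 18 STAT3 targets below it. Of all tested genes 47.4% were below 0.

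Oas2 and Oasl1, of the family that senses or relays double-stranded RNA, passed upward among the STAT2 and IRF9 targets. Oas2 was at 81.8, 28.1, 92.5 and 78.3 CPM in the saline tumors and at 139, 211, 251 and 302 CPM in the treated tumors, and every treated tumor was above every saline tumor (log2 fold change 1.69 ± 0.34 (SE), FDR 0.0427). Oasl1 was at 37.1, 13.9, 35.4 and 24.6 CPM and at 72.1, 59.7, 61.4 and 63.1 CPM, also without overlap (log2 fold change 1.21 ± 0.25 (SE), FDR 0.0458). Saline tumor 2 was lowest for both. Irf7, the factor that amplifies interferon production, was at 173, 55.2, 143 and 119 CPM in the saline tumors and at 279, 249, 287 and 272 CPM in the treated tumors. Its groups did not overlap, and its FDR of 0.0591 was above the limit (log2 fold change 1.15 ± 0.27 (SE)). Bst2, the virus-tethering protein tetherin, had the highest level of the list at 601 CPM per kb, and its log2 fold change of 0.89 ± 0.33 (SE) had an FDR of 0.179. Treated tumor 1, which had the lowest Stat2 value of the 8 tumors, was the lowest treated tumor for 6 of the 20 targets, Oas2 among them, and the highest for 10, Oasl1 and Bst2 among them. Of the saline tumors, tumor 2 was lowest for Stat2 and all 20 targets. Saline tumor 1 was highest for Stat2 and 19 of the 20, and for Oas2 saline tumor 3 was highest. Saline tumors 1 and 2 were also the lowest and highest of their group in summed macrophage markers, at 1214 and 6189 CPM. Whether the targets follow Stat2 was not tested.

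**Figure D4:**
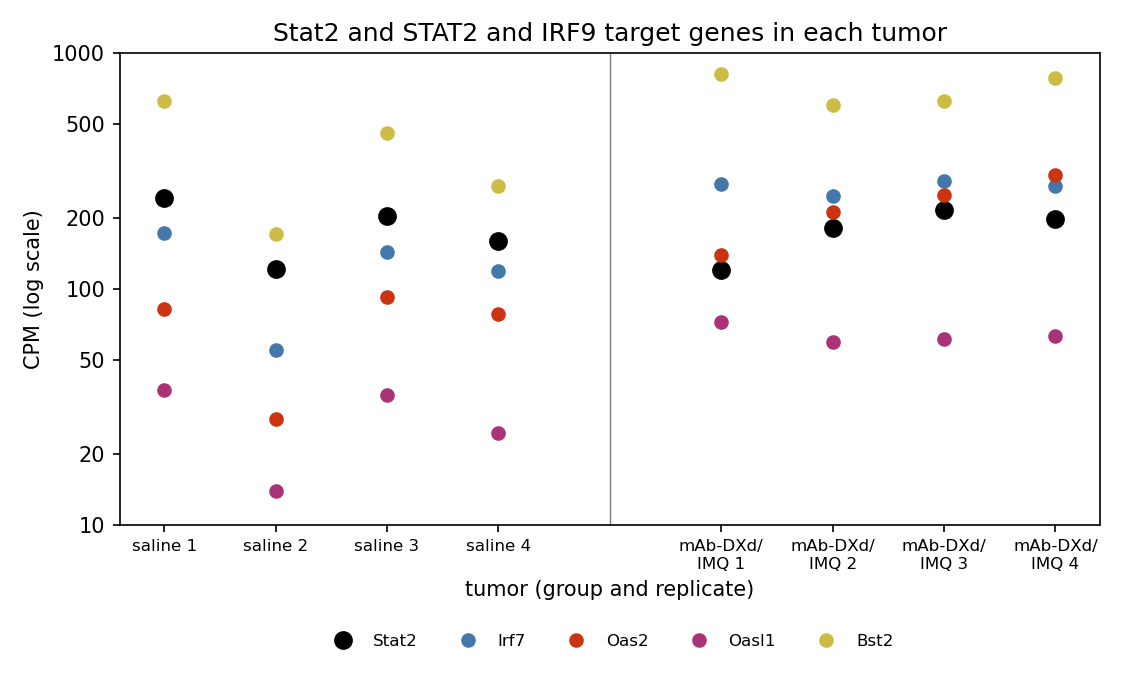
CPM (vertical axis, logarithmic) of Stat2 (large black points) and of Irf7, Oas2, Oasl1 and Bst2 in each of the 8 tumors (horizontal axis). Oas2, Oasl1 and Irf7 are higher in every mAb-DXd/IMQ tumor than in any saline tumor, while Stat2 spans 121 to 242 CPM in the saline tumors and 120.2 to 215 CPM in the treated tumors.

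Of the 18 STAT3 targets, 16 were lower and 2 passed downward, against 47.4% and 0.519% of all tested genes. The list holds Socs3, one of the 9 genes, and 3 of the receptor genes above. Saa3, an acute-phase serum amyloid gene, was at 27.5, 28.1, 37.6 and 29.8 CPM in the saline tumors and at 13.8, 13.4, 18.1 and 13.2 CPM in the treated tumors. The treated values lay well below the saline ones, and Saa3 fell (log2 fold change -1.07 ± 0.15 (SE), FDR 0.0201). Pim1, a survival kinase listed as a target of both STAT3 and STAT5, was at 70.5, 65.6, 65 and 70.1 CPM and at 46.1, 45.8, 33.2 and 51 CPM. It also fell without overlap (log2 fold change -0.62 ± 0.13 (SE), FDR 0.0469). Junb, an AP-1 subunit with the highest level of this list at 162 CPM per kb, had a log2 fold change of -0.53 ± 0.20 (SE) and an FDR of 0.175.

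Among 11 STAT5 targets, Bcl2, the inhibitor of apoptosis, fell together with Pim1. Bcl2 was at 95.1, 126, 90.1 and 107 CPM in the saline tumors and at 60.1, 74.7, 43.3 and 56.7 CPM in the treated tumors, without overlap (log2 fold change -0.83 ± 0.17 (SE), FDR 0.0429). Foxp3, the factor of regulatory T cells, was at 1.5, 1.38, 0.967 and 1.87 CPM and at 0.268, 0.364, 0.24 and 0.956 CPM, low values that did not overlap and did not pass (log2 fold change -1.66 ± 0.48 (SE), FDR 0.101). Without mAb-DXd/IMQ replicate 4 the log2 fold change of Foxp3 was -2.28. Cish itself is on this list.

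Of 13 tested STAT6 targets, 11 were lower, against 47.4% of all tested genes. Pdcd1lg2, the gene of the PD-1 ligand PD-L2, fell from 7.16, 18.2, 9.14 and 8.62 CPM in saline tumors to 3.03, 3.02, 2.12 and 3.12 CPM in the treated tumors. Saline tumor 2 was highest, and no treated tumor reached the lowest saline value (log2 fold change -1.93 ± 0.30 (SE), FDR 0.0201). Mrc1, the mannose receptor of macrophages, was at 104, 360.4, 135 and 189 CPM and at 75.7, 82.8, 72 and 75.7 CPM. Its groups did not overlap, and its FDR of 0.0574 missed the limit (log2 fold change -1.37 ± 0.31 (SE)). The log2 fold change of Mrc1 was -0.90 without saline replicate 2, the highest tumor.

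None of the 9 tested STAT4 targets passed by edgeR or limma-voom, and Ifng passed by DESeq2. An unadjusted p under 0.05 was found for 4 of the 9, against 18.9% of all tested genes. Fasl, the Fas ligand of cytotoxic cells, had a log2 fold change of -0.75 ± 0.26 (SE) and Gadd45g, a stress gene induced by interleukin 12, one of 0.69 ± 0.25 (SE), with FDRs of 0.157 and 0.165. Furin, a proprotein convertase with the highest level of the list at 27.2 CPM per kb, differed by -0.18 ± 0.12 (SE).

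The 8 pathway and target genes past the thresholds did not all hold with a tumor left out. Without saline replicate 3, saline replicate 4 or mAb-DXd/IMQ replicate 4, 0 of the 8 passed by edgeR, beside 10, 11 and 12 genes of all tested. Without saline replicate 1, saline replicate 2 or mAb-DXd/IMQ replicate 1, 4 passed, and without mAb-DXd/IMQ replicate 2 or 3, 2 passed. With a tumor left out, the log2 fold changes kept their direction, at 1.74 to 2.32 for Tslp, -0.87 to -0.68 for Csf3r, 1.42 to 1.86 for Oas2 and 0.98 to 1.37 for Oasl1. For Saa3 they were -1.19 to -0.96, for Pim1 -0.69 to -0.51, for Bcl2 -0.97 to -0.71 and for Pdcd1lg2 -2.09 to -1.56. With the length correction Bcl2 (-0.73) and Oasl1 (1.13) no longer passed, at log2 fold changes near those above. The same held with upper quartile factors for Csf3r (-0.75) and Pim1 (-0.58), with library size alone for Csf3r (-0.76), and with limma-voom for Tslp (1.90).

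Summed T-cell and neutrophil markers were lower in the treated tumors. Of 10 T-cell markers all 10 were lower and 3 passed, Cd2 (-1.44 ± 0.30 (SE), FDR 0.0458), Cd4 (-1.91 ± 0.25 (SE), FDR 0.0201) and Cd8a (-1.22 ± 0.17 (SE), FDR 0.0201), as log2 fold changes. Over all tested genes 47.4% were lower and 0.519% passed downward. With any 1 tumor left out, or with library size alone, Cd2 no longer passed. Cd4 and Cd8a did not pass without saline replicate 3, saline replicate 4 or mAb-DXd/IMQ replicate 4. Their log2 fold changes with a tumor left out were -1.69 to -1.27 for Cd2, -2.09 to -1.77 for Cd4 and -1.36 to -1.11 for Cd8a. All 10 T-cell markers summed to 82.6, 122, 116 and 108 CPM in the saline tumors and 65, 60.4, 39.2 and 52.5 CPM in the treated tumors, with Cd8a the most abundant. Of 6 tested neutrophil markers 5 were lower and 1, Csf3r, passed. Their sum was 227, 84.8, 92.4 and 125 CPM in the saline tumors and 32.7, 50.5, 56.7 and 72.3 CPM in the treated tumors. S100a9, the most abundant neutrophil marker, had a log2 fold change of -1.81 ± 0.43 (SE) and an FDR of 0.0598. Saline tumor 1 was by far highest for S100a9, and without it the log2 fold change was -1.18. In both lists every treated tumor was below every saline tumor, and none of the markers was at 0 counts over the 8 tumors. Their part in the values of the STAT and SOCS genes was not tested.

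**Figure D5:**
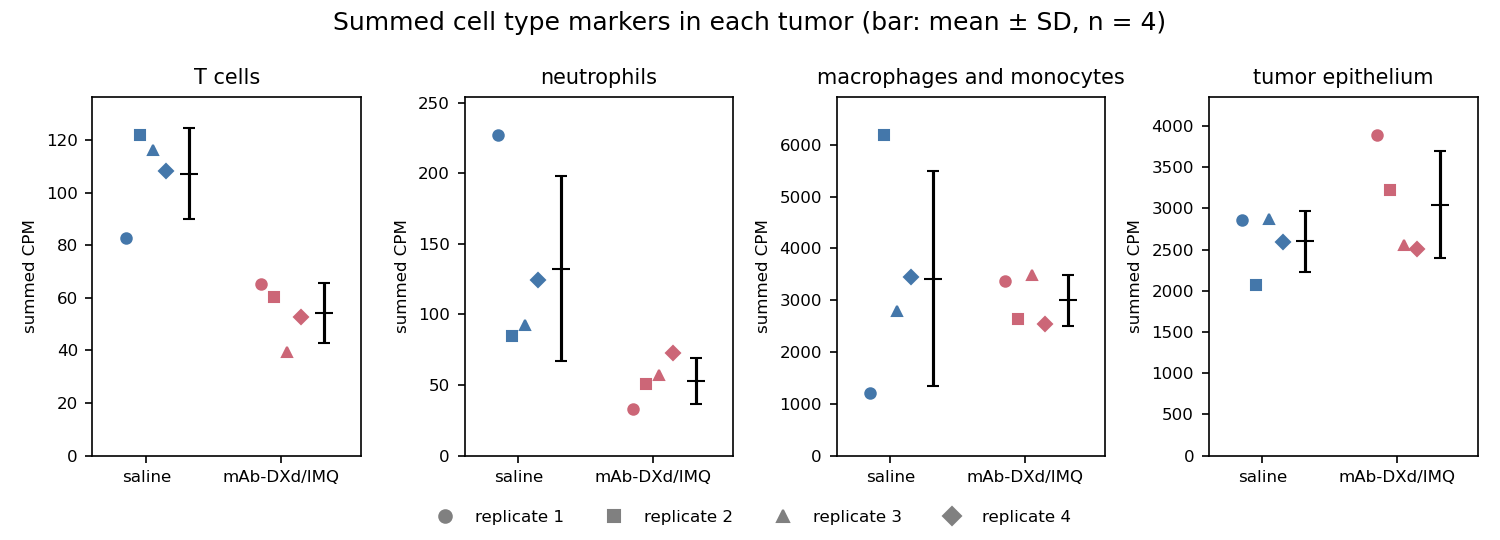
Summed CPM (vertical axes from 0) of T-cell, neutrophil, macrophage and monocyte, and tumor epithelium markers in each of the 4 saline (blue) and 4 mAb-DXd/IMQ (red) tumors, with bars for mean ± SD. T-cell and neutrophil sums are lower in every treated tumor, and saline tumor 1 has the lowest macrophage sum at 1214 CPM beside the highest neutrophil sum at 227 CPM.

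All 9 macrophage and monocyte markers had log2 fold changes below 0 and none passed by edgeR (2 at an unadjusted p under 0.05). Over all 18511 tested genes 47.4% were lower, and 9.79% were lower at an unadjusted p under 0.05. At the same limit 1690 were higher. The sums were 1214, 6189, 2794 and 3438 CPM in the saline tumors and 3364, 2626, 3482 and 2532 CPM in the treated tumors, with Lyz2 the most abundant. Saline tumors 1 and 2 were the extremes and the treated tumors lay between them. Saline tumor 1, lowest in macrophage markers, was highest in Stat2, Stat3, Stat5a, Stat5b, Socs1, Socs3 and Cish. The part of these cells was not tested. B and plasma cell markers summed to 2.87, 9.82, 2.71 and 35.2 CPM in saline tumors. In the treated tumors they summed to 2.46, 1.97, 2.65 and 2.37 CPM. Jchain, the most abundant of them in the pooled counts, was at 1.36, 7.11, 1.00 and 27.4 CPM in the saline tumors. Of the saline tumors, only tumors 2 and 4 had most of their sum in Jchain. Of 5 tested B and plasma cell markers, 4 were lower, 3 of them at an unadjusted p under 0.05. The remaining 1 was higher, also at an unadjusted p under 0.05, and 0 passed.

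Markers of the tumor epithelium, led by Krt18, summed to 2598 ± 375 CPM in the saline and 3045 ± 652 CPM in the treated tumors (SD, n = 4). These sums overlapped, and all 7 genes were higher without passing. Of all 18511 tested genes, 9741 were higher, 1690 of them at an unadjusted p under 0.05. Lower values were found in 47.4% of all tested genes, and 9.79% were lower at that p. NK-cell markers, led by Nkg7, summed to 39.2 ± 5.52 CPM in the saline and 39.6 ± 6.9 CPM in the treated tumors, with overlap. Of these 6 genes 4 were higher, 1 of them at an unadjusted p under 0.05, 2 were lower, and 0 passed. Dendritic-cell markers summed to 97.6 ± 9.17 CPM in the saline and 102 ± 37.8 CPM in the treated tumors, and Itgax alone made up 76.2% of this sum. Gene by gene, 6 of the 7 dendritic-cell markers were lower, 4 of them at an unadjusted p under 0.05 and 0 past the thresholds, with a median log2 fold change of -1.03. Their part was not tested. For fibroblasts, led by Col1a1, the sums were 5060.3 ± 2063 CPM in the saline and 5159 ± 2189 CPM in the treated tumors. Their 8 genes went both ways, 4 higher and 4 lower, with 1 in each direction at an unadjusted p under 0.05 and 0 passing. Endothelium markers, led by Pecam1, summed to 140.3 ± 45.6 CPM in the saline and 182 ± 17 CPM in the treated tumors, and all 6 were higher, 1 at an unadjusted p under 0.05 and 0 passing. Skeletal muscle, epidermis and adipocyte markers were led by Acta1, Krt14 and Fabp4. These lists summed to 229 ± 157, 118 ± 71 and 27.2 ± 8.2 CPM in the saline tumors (SD, n = 4). In the treated tumors they summed to 185 ± 91.9, 259 ± 169 and 24.6 ± 5.8 CPM, with overlap in each list. The epidermis sum was 498 CPM in treated tumor 2 and 102 to 237 CPM in the other treated tumors. The muscle sum went from 37.3 to 393 CPM within the saline tumors. Of the receptor genes that define the TNBC label by protein, Erbb2 made up 85% of the counts of Erbb2, Esr1 and Pgr together. Over the 8 tumors these 3 genes had 40548, 6982 and 176 counts. Pgr was low, at means of 0.367 CPM in the saline and 0.578 CPM in the treated tumors.

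Genes most like the 3 feedback genes were sought by Pearson correlation of log2 CPM over the 8 tumors, after subtracting each group's mean, among 10758 other genes with a mean of at least 8 CPM. The nearest to Socs1 were Batf2 (r = 0.99), Dusp18 (r = 0.98) and Lemd2 (r = 0.97). Nearest to Socs3 were Ppp1r16a (r = 0.99), Rock2 (r = 0.98) and Mark3 (r = 0.98), and nearest to Cish were Pcmtd1 (r = 0.98), Rab6b (r = 0.97) and Rbms1 (r = 0.97). These are the highest coefficients of all genes compared, given as a description. Batf2, an interferon-induced factor, was at 68.7, 24.7, 43.6 and 22.1 CPM in the saline tumors and at 29, 33.3, 29 and 33.4 CPM in the treated tumors, and like Socs1 it was highest in saline tumor 1 and lowest in saline tumor 4.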

How the data were processed

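The authors deposited 1 table of raw counts, with a length and coordinates for each gene. All 8 columns were used, and 0 columns of other samples are in it. Libraries were made from poly(A) RNA, and total counts went from 34591912 to 69582375 per tumor. The submitters' processing notes name HISAT2, HISAT and TopHat2, with versions not given, and the build mm39. Start and end of 53585 of 54495 genes (98.3%) were those of GRCm38, so coordinates are given on GRCm38. Strandedness is not stated, so reads of a gene and its antisense neighbor cannot be told apart.

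Genes were filtered with filterByExpr (minimum count 10, minimum total 15) in edgeR 4.0.16 under R 4.3.3. With TMM factors, the quasi-likelihood F-test compared mAb-DXd/IMQ with saline without covariates, and p-values were adjusted by Benjamini-Hochberg to an FDR of 0.05, with a log2 fold change limit of 0.58. CPM use TMM-effective library sizes, recomputed from the tested genes, and log2 CPM for correlations have a prior count of 2, while marker sums are per 1000000 of all counts. Standard errors and 95% intervals were approximated from the F statistic. The floor of 3 counts was 0.0431 to 0.0867 CPM and covers counting error only.

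The alternatives were DESeq2 1.42.0 (on 31459 genes, with its own independent filtering in place of filterByExpr), limma-voom (limma 3.58.1), 3 other scalings, 2 other filters, edgeR's newer quasi-likelihood method, a replicate block, a spline correction for gene length with 5 degrees of freedom in each tumor, both together, FDR alone, and each tumor left out. Ratios were tested by exact permutation in Python 3.11.15, with scipy 1.17.1 and figures by matplotlib 3.10.9.

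The members and lists were chosen with earlier results of these data known. Genes named are the 9 genes, and from each pathway and target list those past the thresholds, the 3 of lowest p and the one with most CPM per kb. From each marker list they are the most abundant gene and those past the thresholds, and for Socs1, Socs3 and Cish the 3 most correlated genes. Ifnb1, Esr1, Pgr and genes that overlap a named gene are outside this rule. 1 gene that the rule names is not reported here. The steps were tested on simulated data. No 2 libraries of a group were duplicates. The labels name no batch. Reads and proteins were not analysed here.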

Additional observations from a re-analysis of the deposited data

Results flagged for a closer look

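In each group of 4 tumors, the gap between the highest or lowest tumor and its nearest neighbor was divided by the range of the group and compared with Dixon's limit of 0.83 for 4 values. Of 138 groups of 4 checked, 7 exceeded it, beside the 6.9 that chance alone gives at about 1 in 20. The values of the 9 STAT and SOCS genes and of their ratios stayed under the limit in both groups.

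Treated tumor 3 stood apart for Itgax, an integrin of dendritic cells and macrophages, at 128 CPM against 64.2 to 66.8 CPM in the other 3, a gap of 0.959 of the range. The summed dendritic-cell markers, of which Itgax is the largest, were at 158 CPM against 76.2 to 89.4 CPM in the other 3, a gap of 0.838 of the range. The same tumor was high for Saa3, at 18.1 CPM against 13.2 to 13.8 CPM in the other 3, a gap of 0.866 of the range, and low for Pdcd1lg2, at 2.12 CPM against 3.02 to 3.12 CPM in the other 3, a gap of 0.9 of the range. In treated tumor 1, Csf3r was low, at 15 CPM against 21.8 to 22.9 CPM in the other 3, a gap of 0.87 of the range. Among saline tumors, Gadd45g was low in tumor 2, at 11.8 CPM against 21.4 to 22.5 CPM in the other 3, a gap of 0.89 of the range, and Nkg7 was high in tumor 3, at 16.5 CPM against 13.6 to 14.1 CPM in the other 3, a gap of 0.84 of the range. The cause was not tested for any of these.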

How the results depend on the processing

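Of 180 log2 fold changes of the 9 genes under 20 alternatives each, 171 kept their direction and their side of the thresholds. The number at an unadjusted p under 0.05 was 4 to 6, with Stat3, Stat5a, Stat5b and Cish under it in each fit. Cish passed with DESeq2, and 8 values turned above 0. Stat2 turned to 0.0309 with upper quartile factors, 0.021 with library size alone and 0.01 with the length correction. With a tumor left out it ranged from -0.177 to 0.145, above 0 without saline replicate 1, saline replicate 3 (0.0335) or mAb-DXd/IMQ replicate 1 (0.126). Socs1 ranged from -0.54 to 0.0349, Stat3 from -0.54 to -0.45, and Cish from -1.04 to -0.64. The treated minus saline difference in the log2 ratio of Socs1 to Socs3 was -0.0878 to 0.28 with a tumor left out. This difference was below 0 only without saline replicate 4.

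The 197 genes past the thresholds became 358 with no filter, 810 with DESeq2, which was also run without filterByExpr, and 10 to 203 with a tumor left out. Of the 9 genes, 1 passed with DESeq2 and 0 under every other alternative. Pathway genes past the thresholds went from 2 to 6 with DESeq2, 4 by FDR alone, 1 with upper quartile factors, library size alone or limma-voom, and 0 to 1 with a tumor left out. Target genes went from 6 to 10 with no filter, 18 with DESeq2 and 0 to 8 with a tumor left out. A correction for length and GC content, chosen after the data were seen, gave 160 genes past the thresholds and 0 of the 9. The DESeq2 fit covered 31459 genes, as many as the edgeR fit with no filter that gave 358. The cause of these shifts was not tested.

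The labels do not say that equal replicate numbers are paired. Deviations of same-numbered tumors correlated at -0.211, -0.078, 0.134 and -0.066, and 1 of 4 saline tumors correlated best with its own number. With a replicate block in the fit, 14 genes passed, and 18 with the block and the length correction. Pathway genes past the thresholds were 0 and target genes 1 (Saa3) in both blocked fits, and 0 of the 9 passed. Cd2, Cd4 and Cd8a did not pass in either, and the FDR of Stat3 was 0.138 and 0.177. With the block and length correction Stat2 was 0.0383, Col1a1 0.0122, Erbb2 0.0086 and Lyz2 0.25, and with the block alone Lyz2 was 0.34.

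Some marker genes near 0 also turned sign. Lyz2 was 0.008 with upper quartile factors and 0.38 with limma-voom, and 0.61, 0.0612 and 0.0329 without saline replicate 2 and mAb-DXd/IMQ replicates 2 and 4. Erbb2 was 0.0264, 0.0094 and 0.0006 with upper quartile factors, library size alone and the length correction. With a tumor left out, Lyz2 ranged from -0.39 to 0.61, Erbb2 ranged from -0.146 to 0.0652, Col1a1 ranged from -0.38 to 0.139, Fabp4 ranged from -0.25 to 0.154, Itgax ranged from -0.116 to 0.29, Krt18 ranged from -0.0097 to 0.26 and Acta1 ranged from -0.78 to 0.0372. Among pathway and target genes, Il13ra1, Furin, Ptpn6 and Junb stayed below 0 in these fits. Their ranges were -0.35 to -0.04, -0.24 to -0.09, -0.20 to -0.01 and -0.66 to -0.34.

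Each group had 4 tumors of 1 line at 1 dose and 1 time, so differences smaller than the intervals given could be missed. RNA of whole tumors was measured, which separates neither cell types nor phosphorylated from other STAT proteins. Stat4 had few counts and shares exonic bases with a neighbor. Stat3, Stat5a and Stat5b are neighbors on chromosome 11, and all 9 genes were measured in the same tumors, so their differences are not independent of each other. Target lists came from general knowledge, and membership does not show which factor acts on a gene in these tumors.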
